A study of Arabidopsis thaliana with 14 samples.

Results

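Transcript levels were compared between Arabidopsis thaliana seed that cannot make enough gibberellin to germinate and wild type seed, both on plain water. The gibberellin-deficient group was the ga1-3 mutant (3 arrays, seed batches A to C, a genotype for which the labels name no ecotype), and it was set against wild type Landsberg erecta, Ler (4 arrays, seed batches A to D). Every group used here consisted of primary dormant seed harvested from plants in continuous light and kept at -80 C to hold that dormancy, then imbibed for 24 h at 20 C under white light of 100 uE on water-agar of 0.8%. The 7 other arrays of the series, ga1-3 and Ler seed with 1 uM KAR1 (a karrikin, a butenolide from smoke) in the agar, served for side values. Whether the mother plants of ga1-3 had been given gibberellin is not stated in the labels. A letter names different seed in each genotype, the labels call the batches distinct, and each array holds 1 batch. A probe set entered the comparison when the mean of its log2 intensities was at least 4, an intensity of 16, in either genotype. This left 11183 of 22746 probe sets that are not controls. Just inside the limit lay AT3G13190, with a higher group mean of 16, and TUB6, with 16.02, and just outside it AT2G34360 and AT3G53170, both with 15.98.

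Gibberellins are growth hormones that drive seed germination: they weaken the tissues around the embryo, let its cells expand and start the use of reserves. GA1 encodes ent-copalyl diphosphate synthase, which makes the first dedicated intermediate of the pathway, and the ga1-3 allele leaves seed that does not germinate unless gibberellin is supplied. The hormone binds GID1 receptors, which then bring the growth-repressing DELLA proteins to the SLY1 ubiquitin ligase for destruction.

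The annotation named no probe set for GA1, so the mutated gene could not be used to check the labels. The same held for GA3OX1, GA3OX2, GA20OX1, GA20OX2, GA20OX3, RGL2, SCL3, ABI5 and DOG1. The labelled tissue was only partly checkable: of 14 markers of the embryo and of seed maturation, 0 had a named probe set, and none of the 3 seedling markers had one either. Outside that list, PAP85, a vicilin-like storage protein, ranked 7 and the late embryogenesis gene M10 ranked 23 of 22746 probe sets by level. Of 10 endosperm markers 2 were measured, AGL62 and IKU2, and their intensities reached only 5.8 in ga1-3 and 6.6 in Ler. Of 8 seed coat markers 2 were measured, BAN and AT3G50990, which reached 5.0 in ga1-3 and 7.2 in Ler. Summed levels of the endosperm markers were 10.8 to 11.1 in ga1-3 and 10.9 to 11.9 in Ler, and of the seed coat markers 9.5 on each ga1-3 array and 9.5 to 12.2 in Ler. In whole seed, fewer cells of a type and less RNA per cell cannot be told apart.

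The arrays lay apart by genotype and also by batch within a genotype. The first principal component of the compared probe sets held 73.55% of the variance, with scores of 16.87, 58.16 and 57.26 for ga1-3 A to C and of -64.96, -14.2, -28.9 and -24.23 for Ler A to D. Batch A of ga1-3 therefore lay nearest to Ler, and batch A of Ler lay farthest from ga1-3. By the spiked control transcripts the arrays fell into 3 clusters: Ler A and B, then ga1-3 A with Ler C and D, then ga1-3 B and C. These clusters are not a labelled batch, but the middle one, called cluster 2 below, is the only place where both genotypes can be set against each other within a cluster. Mean intensity was 284.5 to 289.7 on ga1-3 arrays and 255.6 to 262.3 on Ler arrays, and the actin control's 3'/5' ratio (log2) was 0.66 to 0.82 in ga1-3 and 0.81 to 1.29 in Ler. The ubiquitin control's ratio was -0.80 to -0.73 in ga1-3 and -0.70 to -0.46 in Ler, with no overlap (exact permutation p = 0.0571, the smallest that 3 against 4 arrays allow). The part of these array differences in the results was not tested, and for called genes named below, the difference within cluster 2 is given where it departs from the whole by more than 1.5 times.

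At a Benjamini-Hochberg adjusted p under 0.05 in limma, 2236 of the 11183 probe sets (20.0%) were higher in ga1-3 and 1102 (9.85%) were lower. Over all 22746 probe sets tested the shares were 16% and 15.1%, so the surplus of higher calls lay among the brighter probe sets. It also depended on scaling, since 1479 were higher and 1519 lower in ga1-3 after quantile normalisation, and 1793 higher and 1840 lower after centring each array. The deposited scale put the median difference of the compared probe sets at 0.16 (log2, ga1-3 minus Ler), against 0.01 after quantile normalisation. Most calls were small. Of the 3338 calls in either direction (29.8% of the compared probe sets, against 31.1% over all tested) 2412 were under 2-fold. The rest were 662 at least 2-fold higher, 5.92% of the compared and 2.91% of all tested probe sets, and 264 at least 2-fold lower, 2.36% and 1.16%. At least 4-fold separated 74 higher and 16 lower calls, and at least 8-fold 14 and 3. Ranges of the genotypes did not overlap for 4673 of the compared probe sets (41.8%), with ga1-3 above Ler for 28.4% and below it for 13.4%. Folds and log2 differences are given after intensities under 16 were raised to 16, and "at least" marks a gene with every array of one genotype under 16.

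**Figure D1:**
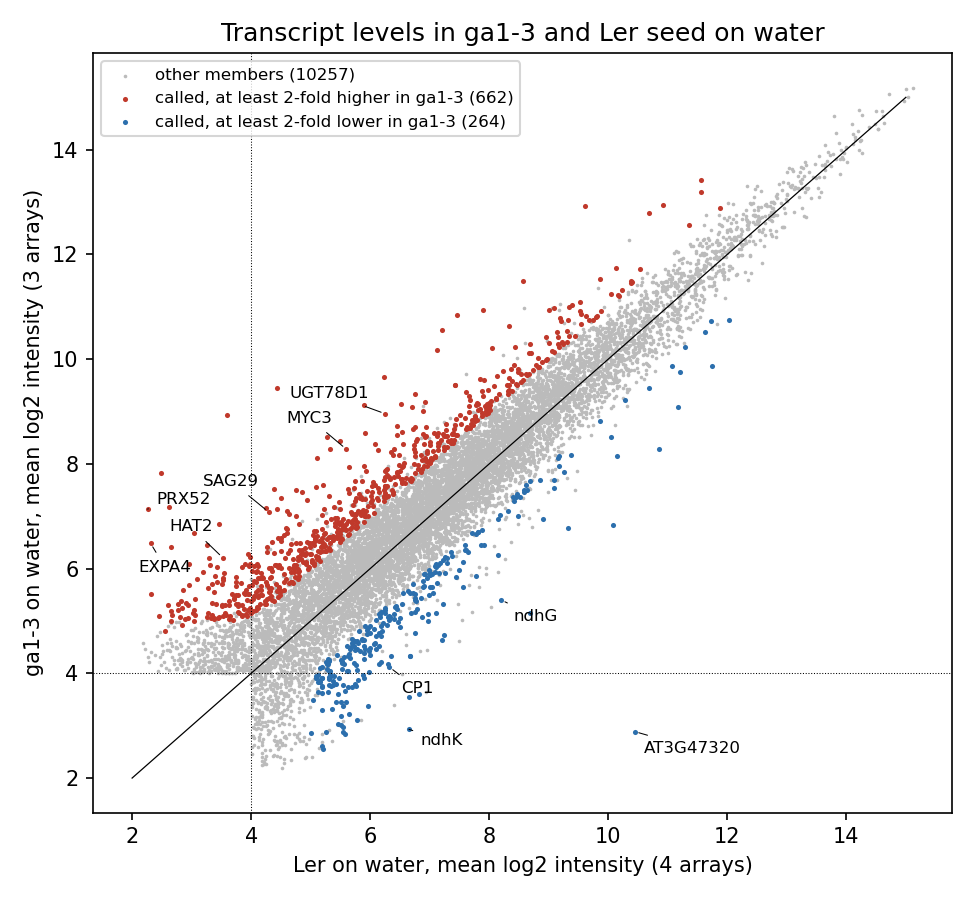
Mean log2 intensity of each of the 11183 compared probe sets in ga1-3 (vertical axis, 3 arrays) against Ler (horizontal axis, 4 arrays) on water. Red points are the 662 calls at least 2-fold higher in ga1-3, blue points the 264 at least 2-fold lower, grey points the rest, the diagonal marks equal means and dotted lines mark log2 of 4, the limit for entry.

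The 3 ga1-3 batches did not contribute equally. Measured from the Ler mean in the direction of the call, the 926 calls of at least 2-fold deviated by a median of 0.905, 1.505 and 1.496 (log2) on ga1-3 A, B and C, against -0.28, 0.18, 0.03 and 0.05 on Ler A to D. For 247 of them batch A deviated by at least 0.8 of the mean deviation of B and C, and for 329 by under 0.5 of it. Within cluster 2, where ga1-3 A is set against Ler C and D, 921 of the 926 kept their direction and 328 were still at least 2-fold apart. These arrays also took part in selecting the 926 calls. The agreement in direction was therefore largely fixed beforehand and is no independent check. Leaving out each of the 7 arrays in turn kept 463 of the 926 called every time. With the cluster as a block, 124 remained called in the same direction. The other clusters each hold a single genotype, so this estimate also rests on ga1-3 A against Ler C and D. It has 3 residual degrees of freedom. On KAR1, with other arrays of the same seed batches, all 926 had the same direction and 879 were called (24.8% of the compared probe sets were called higher there and 12.6% lower). A limma test of the difference between the genotype effects on KAR1 and on water called 0 probe sets, with 116 at an unadjusted p under 0.05. That fit held no term for the seed batch that a KAR1 and a water array share. Its 0 calls therefore do not show that the effects are equal.

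**Figure D2:**
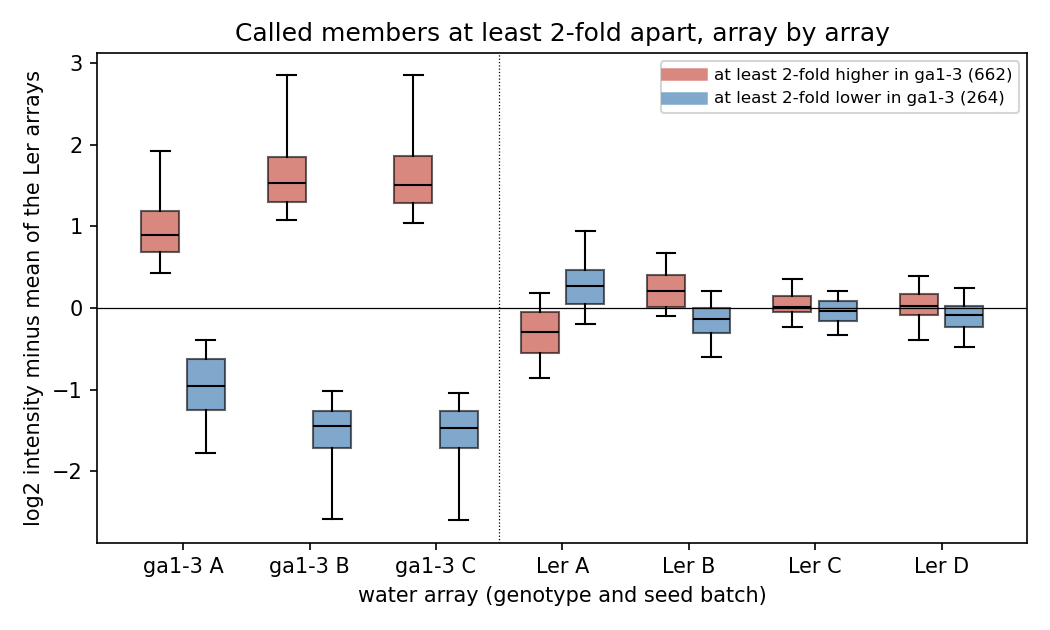
Deviation of each water array from the mean of the 4 Ler arrays (log2, values raised to 16) for the calls at least 2-fold higher (red, 662) and lower (blue, 264) in ga1-3; boxes span the quartiles with a line at the median and whiskers the 5th to 95th percentile. Batches B and C of ga1-3 lie at median deviations of 1.505 and 1.496 in the direction of the call, and batch A at 0.905.

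Among the gibberellin signalling genes, GID1C, which encodes a receptor of the hormone, was higher in ga1-3, with intensities of 83.6, 112.8 and 109.8 in ga1-3 A to C and of 42.5, 42.6, 63.8 and 73.5 in Ler A to D. Every ga1-3 array lay above every Ler array. The difference was 0.91 ± 0.25 (log2, SE; adjusted p = 0.0321, limma), but 0.29 within cluster 2, and adjusted p was 0.115 without ga1-3 B, 0.111 without C, 0.065 without Ler B and 0.0508 without Ler C. Its close relative GID1A had 831.2, 1344.1 and 1265.3 in ga1-3 and 659.2, 795, 776.8 and 993.2 in Ler. The 2 ranges overlap, and the difference of 0.49 ± 0.21 did not pass the test (adjusted p = 0.12, limma). SPY, an O-fucosyltransferase that restrains gibberellin responses, differed by 0.66 ± 0.24 (adjusted p = 0.0756, limma). SLY1, the F-box subunit that marks DELLA proteins for breakdown, differed by -0.46 ± 0.18 (adjusted p = 0.0916, limma). GID1B lay under 16 in the mean of both genotypes. In all 1 of the 4 compared genes of the list was called, or 2 without Ler A. Over all compared probe sets 29.8% were called. The median difference of these 4 genes was 0.58, against 0.15 over all compared probe sets and 0.41 for the list after quantile normalisation. No gene of gibberellin synthesis or breakdown was measured under its name, nor a GASA peptide.

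PRX52 and EXPA4, both genes of the cell wall, separated the genotypes widely. PRX52, a class III peroxidase of the cell wall, had intensities of 142.4, 140.8 and 139.1 in ga1-3 A to C and of 4.6, 5.3, 4.6 and 4.7 in Ler A to D. The ga1-3 batches hardly varied and the gene was near the bottom of the scale in Ler. It was at least 8.80-fold higher in ga1-3 (adjusted p = 2.35e-06, limma), and it remained called whichever single array was left out. EXPA4, an alpha-expansin that loosens cell walls, had 119.5, 77.6 and 77.3 in ga1-3 and 4.3, 7.8, 4.2 and 4.3 in Ler, at least 5.59-fold higher (adjusted p = 0.000105, limma). Its batch A was the highest of the ga1-3 arrays. EXPA20, another expansin, had 37.5, 83.6 and 85 in ga1-3 and 17.5, 23, 25.1 and 16.2 in Ler and was 3.20-fold higher (adjusted p = 0.0108, limma), by 1.68 (log2) over all arrays and 0.90 within cluster 2. EXPA15 went the other way, with 12.2, 10.4 and 10.2 in ga1-3 and 19.6, 19.7, 22 and 20.8 in Ler, at least 1.28-fold lower in ga1-3 (adjusted p = 0.00123, limma). The expansin-like gene EXLA1 differed by 0.22 ± 0.12 (log2) and did not pass (adjusted p = 0.217, limma). So of 14 expansin probe sets 4 were compared, of which 2 were higher, 1 was lower and 1 was not called. Among all compared probe sets 20.0% were higher and 9.85% lower. A second peroxidase, PRXR1, named after its values were seen, had 737.6, 588.7 and 723.6 in ga1-3 and 234.2, 281.9, 214 and 292.9 in Ler and was 2.68-fold higher (adjusted p = 0.000901, limma). The 2 compared genes of the list of xyloglucan endotransglucosylases and mannanases and the 2 compared cellulose synthase relatives were not called.

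Of the tubulins, TUB7, a beta-tubulin of the microtubules, had 71.8, 63.5 and 69.2 in ga1-3 and 34.5, 10.9, 16.7 and 13.6 in Ler. All ga1-3 arrays lay above Ler A, the highest Ler array. It was 3.47-fold higher (adjusted p = 0.00908, limma) and its difference was larger within cluster 2, at 2.13 against 1.797 (log2). TUB9 differed by 0.68 and TUA1 by 0.66, both called (adjusted p = 0.0355 and 0.0129, limma), although TUB9 had an adjusted p of up to 0.127 with 1 array left out and TUA1 of 0.0553 without ga1-3 C. Within cluster 2 TUB9 differed by 0.24. TUA6 and TUB6 were not called. The median over these 5 genes was 0.68, and 0.51 after quantile normalisation. Over all compared probe sets 20.0% were called higher, and the median difference was 0.15, or 0.01 after quantile normalisation. Tubulin transcripts are alike in sequence, so a probe set can take up signal from a relative.

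Sugar transporters of the SWEET family, which let sugars cross membranes down their gradient, differed in both directions. Of 3 compared, 2 were higher and 1 was lower, where 20.0% and 9.85% of all compared probe sets were. SAG29, also known as SWEET15, had 127, 161.2 and 121 in ga1-3 and 28.2, 19.3, 16.4 and 16.6 in Ler. It was 6.90-fold higher in ga1-3, a difference of 2.79 ± 0.23 (log2, SE; adjusted p = 0.000245, limma), with 2.94 within cluster 2. SWEET6 had 41.1, 52.8 and 47.3 in ga1-3 and 120.9, 78.4, 82.4 and 79.5 in Ler, a difference of -0.92 ± 0.19 (adjusted p = 0.0131, limma). Neither gene's ranges overlapped. SWEET1 differed by 0.61 ± 0.15 (adjusted p = 0.0217, limma), with an adjusted p of 0.0546 without Ler C, 0.0551 without ga1-3 B and 0.0859 without ga1-3 C, and by 0.12 on KAR1. Of the vacuolar sugar carriers, named after their values were seen, TMT1 was 3.65-fold and TMT2 2.204-fold higher (adjusted p = 0.0212 and 0.0189, limma), and both lost the call when some single arrays were left out (adjusted p of up to 0.0839 and 0.0777). Within cluster 2 TMT1 differed by 0.72, against 1.87 over all arrays (log2). VHA-A1, a subunit of the proton pump that acidifies endomembrane compartments, had 42.1, 64.9 and 66.7 in ga1-3 and 15.4, 21.5, 19.5 and 15.6 in Ler, 3.13-fold higher (adjusted p = 0.002, limma).

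CHIL and 2 flavonoid glycosyltransferases were highest in ga1-3 batches B and C. CHIL, a chalcone isomerase-like protein that assists flavonoid production, had 308.4, 800.8 and 718.9 in ga1-3 and 98.3, 185.5, 127.8 and 30.5 in Ler. The groups did not overlap, yet Ler D lay far below the other Ler arrays. The difference was 2.61 ± 0.67 (adjusted p = 0.0281, limma), with adjusted p of 0.103 without ga1-3 B, 0.0988 without C and 0.0503 without Ler C. UGT78D1, a flavonol rhamnosyltransferase, had 199.9, 834.3 and 738.6 in ga1-3 and 42, 159.2, 80.4 and 62.3 in Ler. Its ga1-3 A value was only slightly above Ler B. The difference of 2.71 ± 0.65 (adjusted p = 0.0215, limma) was 1.498 within cluster 2, and adjusted p lay at 0.0812 without ga1-3 B, 0.0821 without C, 0.051 without Ler C and 0.0556 without Ler D. UGT78D2, the flavonoid glucosyltransferase beside it in the pathway, had 485.9, 1526.1 and 1527.3 in ga1-3 and 260, 663.4, 383.1 and 242.1 in Ler and did not pass (1.55 ± 0.53, adjusted p = 0.0693, limma). In the 2 called genes ga1-3 A deviated from Ler by 0.574 (CHIL) and 0.414 (UGT78D1) of the mean deviation of B and C.

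UDP-glycosyltransferases are enzymes that add a sugar to hormones and other small molecules. Only those with a UGT symbol were listed, so other genes of the family were not counted. Of 47 listed probe sets 18 were compared, of which 7 were higher, 1 was lower and 10 were not called. Among all compared probe sets 20.0% were higher and 9.85% lower. The median difference of the 18 was 0.53, and 0.38 after quantile normalisation. UGT74B1, which adds the glucose of glucosinolates, had 65.6, 100 and 62.8 in ga1-3 and 27.9, 44.2, 37.6 and 31.4 in Ler, 2.14-fold higher (adjusted p = 0.0137, limma). UGT85A5 was the 1 lower gene, with 203, 176.8 and 167.8 in ga1-3 and 381.5, 417.8, 414.7 and 383.7 in Ler, 2.19-fold lower in ga1-3 (adjusted p = 0.000462, limma). Its 2 ranges were far apart, whereas UGT73B4 was raised on ga1-3 B and C alone (7.5, 41.2 and 39.1 in ga1-3, against 6.2, 7.6, 7.3 and 7.2 in Ler) and was not called. GTR1, a glucosinolate transporter named after its values were seen, was 2.54-fold higher (adjusted p = 0.016, limma; up to 0.0681 with 1 array left out), by 1.35 (log2) over all arrays and 0.64 within cluster 2.

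Of 7 compared cytochrome P450 genes 3 were higher and 1 lower. Among all compared probe sets 20.0% were higher and 9.85% lower, the background for every family in this paragraph. CYP71B6 had 127.3, 264.1 and 213.9 in ga1-3 and 54.8, 91.2, 69.2 and 61.5 in Ler, 2.84-fold higher (adjusted p = 0.0095, limma), by 1.51 (log2) over all arrays and 0.96 within cluster 2. CYP84A4, of the family of ferulate 5-hydroxylase, had 16.5, 14.7 and 13.9 in ga1-3 and 38.2, 33.9, 32.5 and 31.4 in Ler, 2.097-fold lower in ga1-3 (adjusted p = 0.000714, limma). Both genes separated the genotypes on every array. Of 4 compared beta-glucosidases listed by name 2 were higher, BGLU44 by 1.41-fold and BGLU25 by more. BGLU25 was 3.04-fold higher, with 1638.2, 1103.4 and 1072.7 in ga1-3 and 285, 386.9, 531.5 and 484.7 in Ler (adjusted p = 0.00493, limma). PYK10, the beta-glucosidase of endoplasmic reticulum bodies, went the other way and was named after its values were seen, with 5.4, 5.5 and 6.7 in ga1-3 and 37.3, 35.9, 47.2 and 29.6 in Ler. It was at least 2.31-fold lower in ga1-3 on water (adjusted p = 0.000103, limma) and differed by -2.08 (log2) on KAR1. Of 3 compared glutathione S-transferases 2 were higher, GSTU26 and GSTL3, and of 3 compared WRKY factors WRKY6 was higher. GSTU26 differed by 0.99 over all arrays and 0.40 within cluster 2, and WRKY6 by at least 0.83 and 0.42 (log2). Before values were raised to 16, WRKY6 differed by 1.21 and 0.62.

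**Figure D3:**
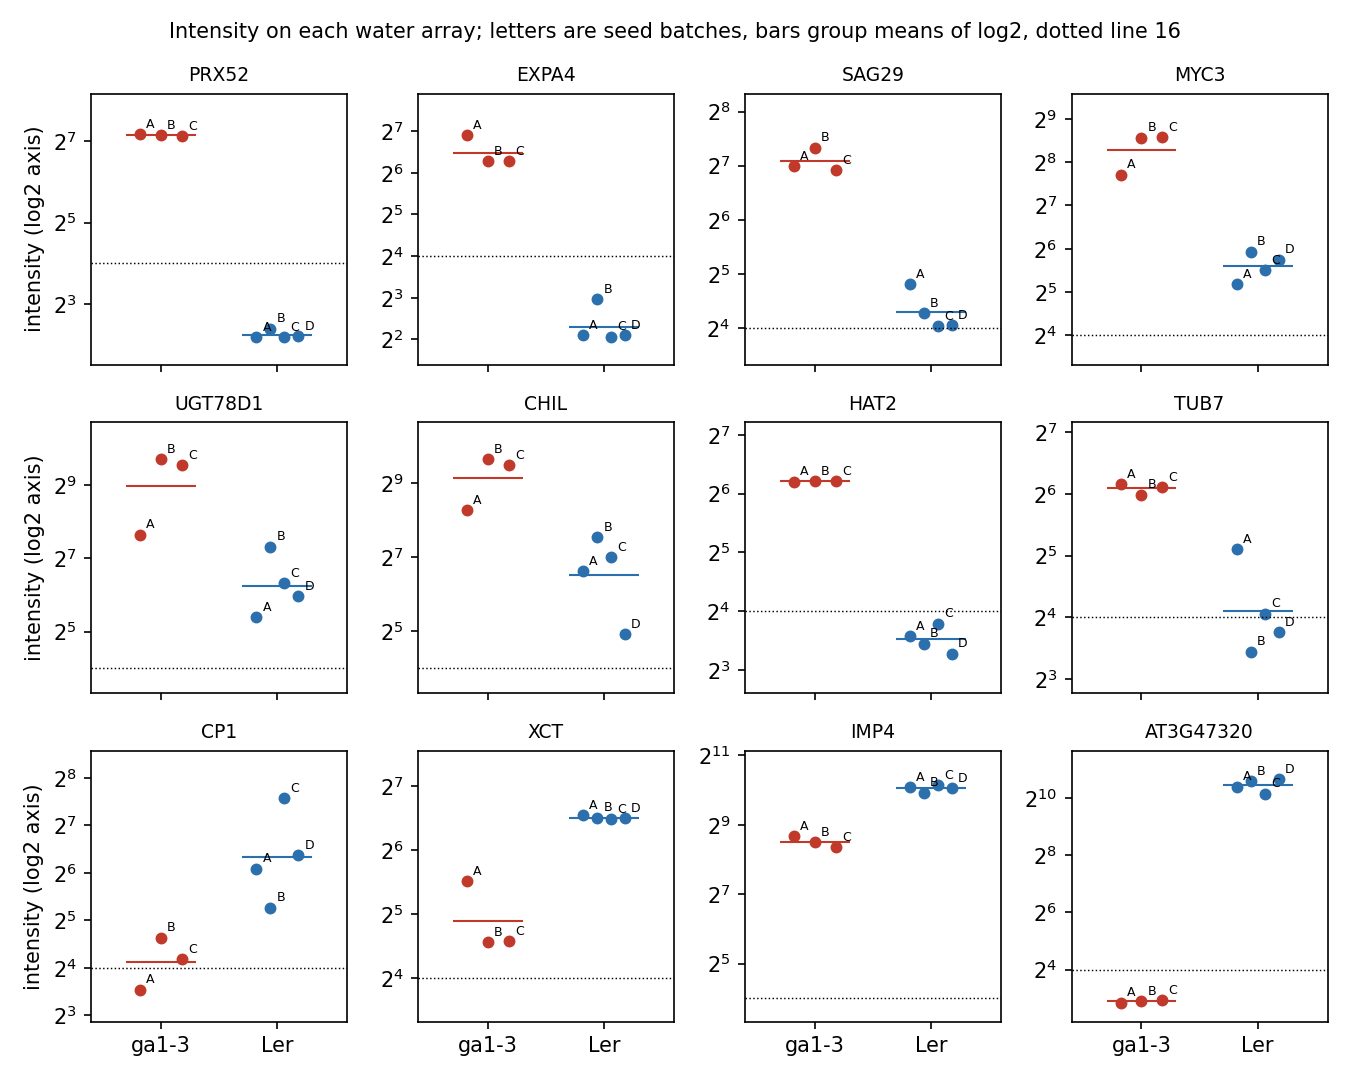
Intensity of 12 genes on each water array, on a log2 axis, with ga1-3 left (red) and Ler right (blue); letters are seed batches, bars are group means and the dotted line is an intensity of 16. PRX52, HAT2 and AT3G47320 have nearly equal values on the ga1-3 arrays, whereas UGT78D1, CHIL and XCT place ga1-3 A between the other ga1-3 arrays and Ler.

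Regulators were found on both sides. MYC3, a bHLH factor of jasmonate responses, had 209.4, 377.9 and 383.3 in ga1-3 and 36.5, 61.1, 45.5 and 53.7 in Ler. The lowest ga1-3 value was well above the highest Ler value, and the difference was 2.69 ± 0.28 (adjusted p = 0.000723, limma). HAT2, a homeodomain-leucine zipper factor that auxin induces, named after its values were seen, had 73.6, 74.1 and 74.4 in ga1-3 and 11.9, 10.9, 13.8 and 9.7 in Ler, at least 4.63-fold higher (adjusted p = 4.38e-05, limma). On KAR1 its difference was 1.23 (log2), against at least 2.21 on water. The genes that follow in this group were also chosen that way. LHW, a bHLH factor of vascular development, had 176, 166.5 and 189.6 in ga1-3 and 63.2, 69.1, 79.4 and 71.8 in Ler, 2.51-fold higher (adjusted p = 0.000386, limma). SIM, an inhibitor of cyclin-dependent kinases, was 2.26-fold and HON4, a histone H1-like protein, 3.04-fold higher (adjusted p = 0.00878 and 0.0025, limma). XCT, a nuclear protein needed for normal clock pace, had 45.9, 23.7 and 24 in ga1-3 and 93.5, 90.8, 89.1 and 89.9 in Ler. Ler arrays were nearly equal, and ga1-3 A lay between them and the other ga1-3 arrays. The gene was 3.06-fold lower in ga1-3 (adjusted p = 0.0039, limma), by 1.61 (log2) over all arrays and 0.96 within cluster 2. PHV, a leaf polarity factor of the class III homeodomain family, had 34.7, 22.1 and 19.7 in ga1-3 and 59.6, 55.6, 62.1 and 56.4 in Ler, 2.36-fold lower (adjusted p = 0.00545, limma), by 1.24 (log2) over all arrays and 0.77 within cluster 2.

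Other named genes with no role in the lists were also chosen after their values were seen, from the 842 compared probe sets with a gene symbol. Of these 842, 59 were called at least 2-fold higher and 22 at least 2-fold lower. The shares over all compared probe sets were 5.92% and 2.36%. CRT1b, a calcium-binding chaperone of the endoplasmic reticulum, had 299.6, 257.9 and 303.5 in ga1-3 and 80.9, 103.9, 83.8 and 67.9 in Ler, 3.44-fold higher (adjusted p = 0.000419, limma). ATERDJ3B, a co-chaperone there, was 1.86-fold higher (adjusted p = 0.00871, limma). Its ga1-3 A value, 312.5, exceeded those of B and C, 202.7 and 235.2, and Ler arrays had 122.1 to 146.8. ALDH2C4, a dehydrogenase that forms ferulic and sinapic acid, was 2.67-fold higher (adjusted p = 0.00419, limma). The triose phosphate isomerase TPI was 1.83-fold and LTA3, a mitochondrial pyruvate dehydrogenase subunit, 2.01-fold higher (adjusted p = 0.00416 and 0.00675, limma), and both were called in every fit with 1 array left out. ATP-citrate lyase, which makes cytosolic acetyl-CoA, had its subunit genes ACLA-1 and ACLB-1 at 2.13-fold and 2.58-fold (adjusted p = 0.0199 and 0.0433, limma), with adjusted p of up to 0.0807 and 0.15 when 1 array was left out. Within cluster 2 ACLA-1 differed by 0.42, against 1.09 over all arrays, and ACLB-1 by 0.68, against 1.36 (log2).

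Lower in ga1-3 was IMP4, a ribosomal RNA processing protein, with 411.7, 360.1 and 330.4 in ga1-3 and 1092.1, 976.8, 1127.9 and 1059.3 in Ler. The groups were tight and far apart, a difference of -1.54 ± 0.11 (adjusted p = 0.000133, limma). OSB1, an organellar DNA-binding protein, was 2.56-fold lower, with 32.9, 24.5 and 34.3 in ga1-3 and 83.2, 71.4, 81.4 and 74.4 in Ler (adjusted p = 0.0011, limma). MSRB5, a methionine sulfoxide reductase that repairs oxidised protein, had 352.2, 462.9 and 470.3 in ga1-3 and 940.4, 682.7, 835.1 and 796.2 in Ler, 1.90-fold lower (adjusted p = 0.00581, limma). SRX, a sulfiredoxin that reactivates peroxiredoxins, was 1.98-fold lower (adjusted p = 0.0202, limma; up to 0.0816 with 1 array left out), by 0.99 (log2) over all arrays and 0.44 within cluster 2. The cysteine protease gene CP1 had 11.6, 24.8 and 18.2 in ga1-3 and 68, 38.5, 190.4 and 82.7 in Ler, a difference of -2.05 ± 0.55 (adjusted p = 0.0236, limma). Both groups were spread widely, and adjusted p reached 0.0758 without ga1-3 C, 0.0646 without A, 0.0577 without Ler D and 0.0505 without ga1-3 B.

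Among probe sets with 1 listed gene and no overlap between the genotypes, genes with no symbol led both directions by size, and no role is given for them. Probe sets without a single listed gene, left unnamed here, reached a difference of up to 4.72 (log2). AT3G47320, a pseudogene in the gene table, had 7.2, 7.4 and 7.6 in ga1-3 and 1349, 1530, 1137.9 and 1610.8 in Ler. It was at least 87.2-fold lower in ga1-3 (adjusted p = 1.94e-06, limma), with a difference of -6.40 (log2), also a bound, within cluster 2. AT5G18540 had 76.9, 23.7 and 24.5 in ga1-3 and 456.3, 394.8, 414.6 and 391.7 in Ler, 11.7-fold lower (adjusted p = 0.00124, limma), again with ga1-3 A between the others and Ler. Among the higher genes, AT2G43580 had 243.2, 484.9 and 410.4 in ga1-3 and 26.3, 42, 40.5 and 51 in Ler, 9.38-fold higher (adjusted p = 0.000518, limma). AT5G55050 had 172.9, 150.9 and 163.6 in ga1-3 and 23.1, 26.9, 22.9 and 18.7 in Ler, 7.14-fold higher (adjusted p = 4.38e-05, limma). These ranges did not overlap. The fitted differences of AT2G05580 (3.38), AT5G35660 (3.35) and AT2G42560 (3.33) were larger but less certain, with 1.83, 1.43 and 1.87 within cluster 2. In AT2G42560 Ler A had 114.9 and Ler B to D 1599.2, 1096.3 and 1810.6, against 5150.3, 9492 and 9735.1 in ga1-3, and the call (adjusted p = 0.0478, limma) was lost in 6 of the 7 fits with 1 array left out, at up to 0.139. AT2G05580 reached 0.11 and AT5G35660 0.118 in such fits, without ga1-3 B in each case. AT2G22590 had 31.6, 348.2 and 271.6 in ga1-3 and 5.8, 7.8, 6.1 and 5.2 in Ler, at least 9.002-fold higher (adjusted p = 0.00871, limma). Within cluster 2 it differed by at least 0.98 (log2). Before values were raised to 16 it differed by 4.55 over all arrays and 2.49 within cluster 2.

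The remaining genes of largest difference fell into those that ga1-3 A shared in full and those it shared in part. AT1G17410 had 16.6, 9.8 and 9.9 in ga1-3 and 133.2, 86.8, 96.2 and 92.1 in Ler, 6.21-fold lower (adjusted p = 0.000223, limma), by -2.50 (log2) within cluster 2 and -2.63 over all arrays. AT5G52780 and AT5G19630 were 3.90-fold and 3.96-fold lower (adjusted p = 0.00117 and 0.000656, limma), and their differences within cluster 2 were both -1.76. In these 3 genes ga1-3 A lay near B and C. AT5G23380 instead had 56.1, 16.6 and 16.4 in ga1-3 and 206.2, 129, 150.9 and 118.2 in Ler, 5.95-fold lower (adjusted p = 0.00778, limma), with -1.25 within cluster 2 against -2.57 over all arrays. AT5G38170, AT3G09380, AT3G16120 and AT5G19480 likewise had ga1-3 A between B and C and Ler, and were 3.88-fold to 4.61-fold lower. Their differences within cluster 2 were -1.07, -0.97, -0.94 and -1.08, against -2.21, -2.19, -2.08 and -1.96 over all arrays (log2). All but AT5G19480 of these 4 lost the call without ga1-3 B or without C, at adjusted p of 0.0556 to 0.0835 (limma). Among higher genes, AT1G64500 had 131.7, 199 and 239.8 in ga1-3 and 15.5, 27.9, 19.9 and 22.3 in Ler, 8.75-fold higher (adjusted p = 0.00033, limma). AT1G06000 had 550.7, 1671.5 and 1675.1 in ga1-3 and 113, 297.3, 132 and 84.9 in Ler, 8.29-fold higher (adjusted p = 0.00874, limma). Ler B was the highest Ler array for both and ga1-3 A the lowest ga1-3 array. AT1G06550 and AT2G23910 were 6.33-fold and 5.98-fold higher (adjusted p = 0.0182 and 0.0215, limma), and like CHIL both had their lowest value on Ler D, 24.3 and 44.3. Without ga1-3 B their adjusted p was 0.0735 and 0.0834, and without C 0.0723 and 0.0814 (limma).

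Of 26 listed genes of seed storage, oil bodies and late embryogenesis 4 were compared. Of these 1 was lower in ga1-3 and 3 were not called, where 9.85% of all compared probe sets were lower. PAP85 had 26166.1, 25181.2 and 25644 in ga1-3 and 24678.4, 24813.1, 24570.4 and 26165.9 in Ler, a difference of 0.04 ± 0.05 (adjusted p = 0.609, limma). M10 differed by 0.03 ± 0.10 and HIS1-3, a linker histone, by -0.30 ± 0.21, neither called on water (adjusted p = 0.821 and 0.316, limma). On KAR1 HIS1-3 differed by -0.915 (log2; adjusted p = 0.00293, limma). LEA4-5, a late embryogenesis protein, was 1.31-fold lower, with 6253.9, 5768.6 and 5718.7 in ga1-3 and 8138.8, 8135.3, 7863.2 and 6986.7 in Ler (adjusted p = 0.0124, limma; 0.0544 without ga1-3 B and 0.0537 without C), a difference of -0.39 (log2) over all arrays and -0.24 within cluster 2. For breakdown of oil, ICL, the isocitrate lyase of the glyoxylate cycle, had 17529.6, 14409.1 and 15205 in ga1-3 and 14467.9, 15827.5, 17301.6 and 16427.7 in Ler. The ranges overlap and the difference was -0.03 (adjusted p = 0.825, limma). The lipase gene SDP1 and PPDK, a dikinase of gluconeogenesis, were not called either (0.53 and 0.52, adjusted p = 0.242 and 0.062, limma). Of 8 autophagy genes 1 was lower and 7 were not called, where 9.85% of all compared probe sets were lower. The median of the 8 was -0.43. The lower one, ATG8H, of a family that coats autophagosome membranes, differed by -0.87 ± 0.22 (adjusted p = 0.0241, limma; up to 0.094 with 1 array left out), and by -0.55 within cluster 2.

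**Figure D4:**
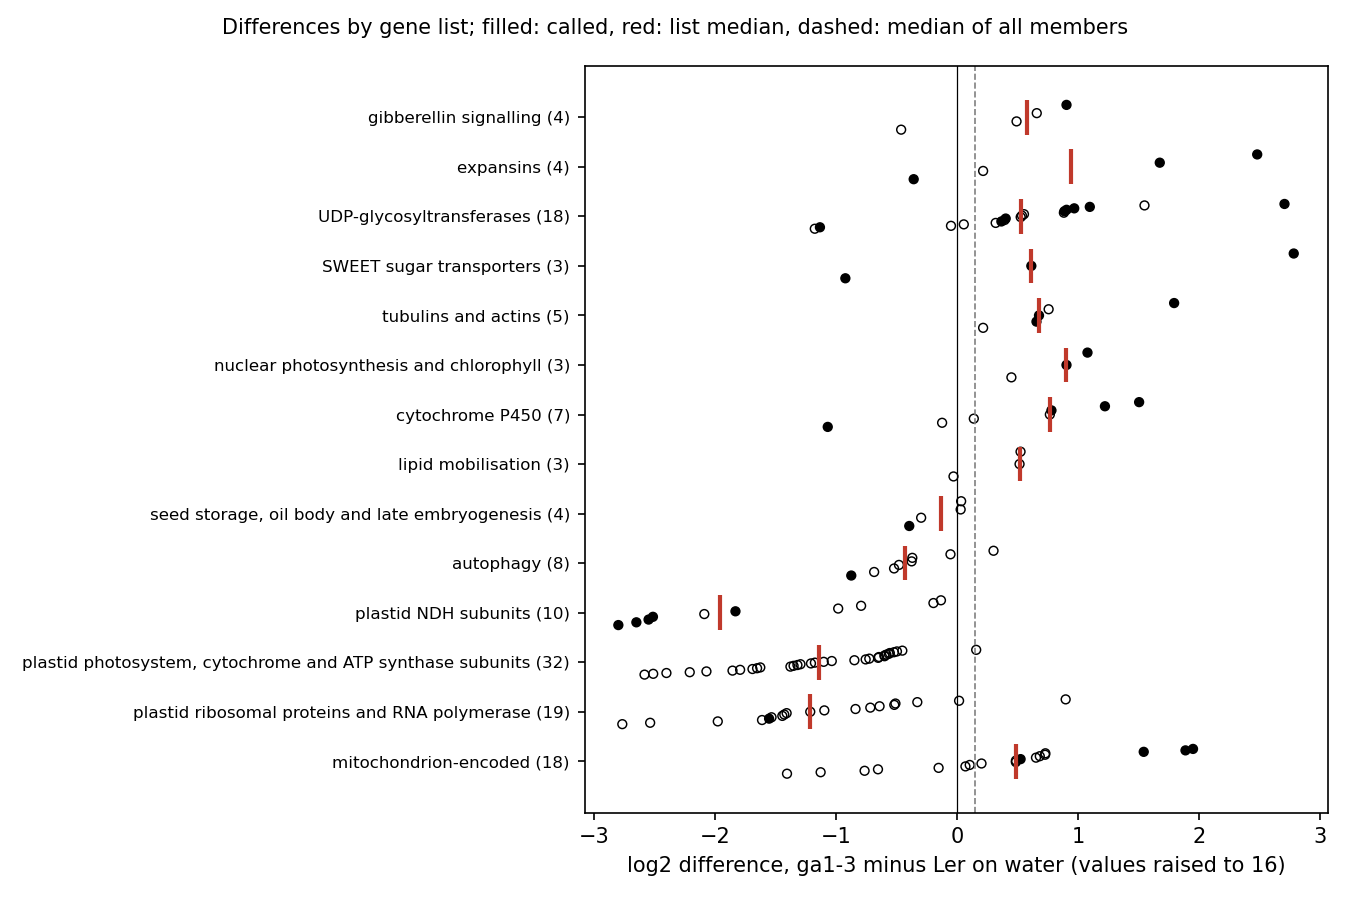
Difference between ga1-3 and Ler on water (log2, values raised to 16) for the compared members of 14 gene lists, with the number of members in brackets. Filled points passed the test (adjusted p under 0.05, limma), open points did not, red bars are list medians and the dashed line is the median of all 11183 compared probe sets, 0.15; the medians of the plastid, autophagy and seed storage lists lie left of it and those of the other lists right of it.

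Of 39 listed nuclear genes of photosynthesis 3 were compared and 2 were higher in ga1-3, where 20.0% of all compared probe sets were higher. LHCB4.3, a light-harvesting antenna protein, had 64.4, 92.5 and 88.2 in ga1-3 and 38.4, 37, 41.4 and 36.1 in Ler, 2.11-fold higher (adjusted p = 0.0032, limma). RCA, the activase of Rubisco, had 32.8, 32.4 and 26.9 in ga1-3 and 11.8, 15.9, 10.5 and 17.3 in Ler, 1.87-fold higher (adjusted p = 0.0066, limma). LHCB4.1 had its highest value on ga1-3 A, 796.5, and was not called. Outside the list, and chosen after their values were seen, PSBW, a photosystem II subunit, and LPA1, which helps assemble that photosystem, were 1.80-fold and 2.02-fold lower (adjusted p = 0.0107 and 0.034, limma). LPA1 had an adjusted p of up to 0.103 with 1 array left out and differed by -0.57 within cluster 2, against -1.02 over all arrays (log2). All 69 plastid-encoded probe sets entered the comparison, of which 6 were lower and 0 higher in ga1-3 (limma; 9.85% of compared probe sets were called lower). Their median difference was -1.17, with 66 of 69 negative. In 24 the genotypes did not overlap, each with ga1-3 below Ler, beside 13.4% of all compared probe sets.

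The plastid medians per array were 7.63, 7.37 and 7.21 (log2) in ga1-3 A to C and 10.2, 8.11, 8.42 and 7.73 in Ler A to D, so Ler A alone stood far above the rest. Without Ler A the median difference was -0.73 and 19 of the 69 were called lower, beside 1252 of all 11183 compared probe sets. Within cluster 2 the median difference was -0.29. The signal of the 5S ribosomal RNA control moved alike, at 8.23, 7.36 and 6.85 (log2) in ga1-3 and 10.6, 9.58, 9.37 and 8.20 in Ler. Its part in the result was not tested.

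Subunits of NDH, the plastid complex for cyclic electron flow, made up 5 of the 6 plastid calls, or 6 of 19 without Ler A. In the fit on all 7 arrays ndhE, ndhF, ndhG, ndhH and ndhK were lower and the other 5 of 10 were not called. The other call was rpl14, a ribosomal protein gene, 1 of 19 genes for ribosomal proteins and RNA polymerase. None of 32 photosystem, cytochrome and ATP synthase genes was called by limma, though their median was -1.14, and 10 were called lower without Ler A. In the same fit 3 of the 19 genes for ribosomal proteins and RNA polymerase were lower, and 1252 of all 11183 compared probe sets. Within cluster 2 the difference of rpl14 was -0.55, against -1.55 over all arrays (log2). ndhG had 86.1, 26.6 and 32.9 in ga1-3 and 932.8, 194.6, 248.9 and 166 in Ler, 6.97-fold lower (adjusted p = 0.0267, limma; 0.1 without ga1-3 B, 0.0948 without C and 0.0561 without Ler C). ndhK had 8.4, 6 and 8.8 in ga1-3 and 444.8, 63, 96.7 and 37.7 in Ler, at least 6.28-fold lower (adjusted p = 0.0167, limma; 0.0656 without ga1-3 B and 0.0548 without C). Even the lowest Ler array of each gene lay above the highest ga1-3 array, while Ler A was several times the other Ler arrays. Differences within cluster 2 were -1.24 for ndhG, -1.40 for ndhE, -1.32 for ndhH and -0.99 for ndhF, against -2.80, -2.55, -2.52 and -1.83 over all arrays (log2). The NDH median of -1.96 was -1.42 without Ler A and -0.98 within cluster 2. Genes of 1 plastid transcript unit share RNA and are not independent.

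**Figure D5:**
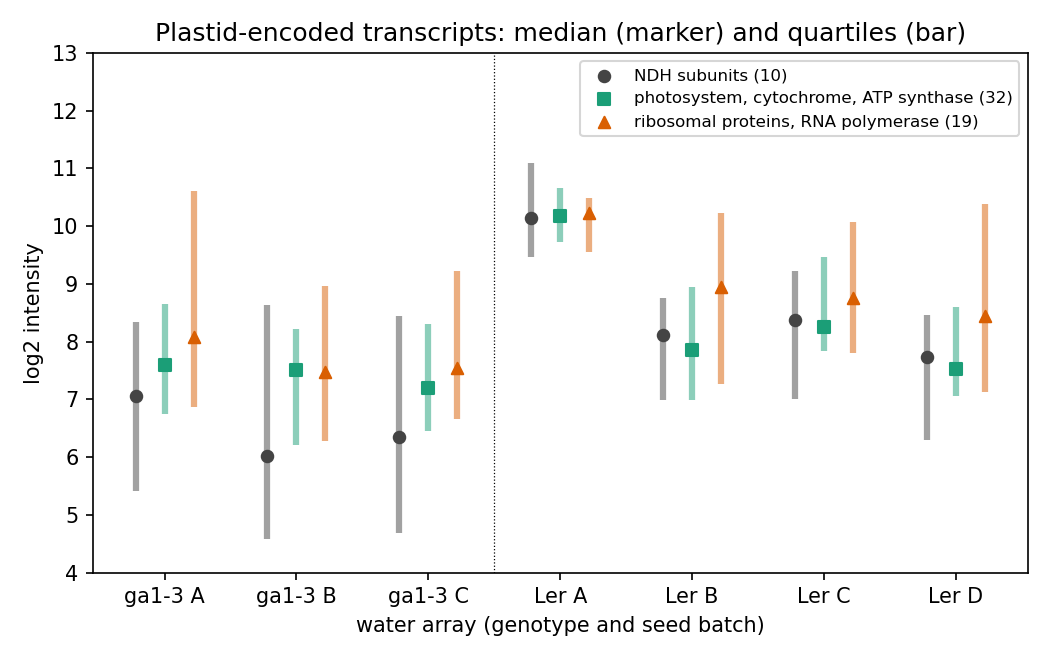
Log2 intensity of plastid-encoded transcripts on each water array, ga1-3 left of the dotted line and Ler right of it. Markers are medians and bars quartiles over 10 NDH, 32 photosystem, cytochrome and ATP synthase, and 19 ribosomal protein and RNA polymerase probe sets; Ler A stands above all other arrays in each class.

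Of 18 mitochondrial probe sets 4 were higher and 0 lower in ga1-3 by limma, with a median of 0.49, where 20.0% of all compared probe sets were called higher. Without Ler A 5 were higher and 3 lower, beside 2353 and 1252 of all 11183 compared probe sets. cox1, a subunit of cytochrome c oxidase, had 402.4, 911.1 and 576.2 in ga1-3 and 234.7, 198.9, 195.5 and 190.1 in Ler, 2.92-fold higher (adjusted p = 0.00625, limma). The lowest ga1-3 array lay well above Ler A, the highest of Ler. ccb452, for cytochrome c assembly, was 3.87-fold higher (adjusted p = 0.0154, limma; 0.0638 without ga1-3 B and 0.0647 without C), by 1.95 (log2) over all arrays and 1.17 within cluster 2. For nad5, of respiratory complex I, 1 of 2 probe sets was called, and for nad1 1 of 6. The called nad1 probe set differed by at least 0.53 (log2) over all arrays and at least 0.11 within cluster 2. Before values were raised to 16 these differences were 1.20 and 0.91. XERICO, EIN3 and HYH, regulators of abscisic acid, ethylene and light responses, were each the single compared gene of their list. None was called (0.45, 0.43 and -0.03, adjusted p = 0.132, 0.0585 and 0.926, limma). Lists of abscisic acid synthesis, cell cycle, heat shock, MYB, aquaporin and auxin response genes had no compared member.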

How the data were processed

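RNA from imbibed seed was measured on 1-colour 3' expression arrays. Biotin-labelled cRNA was made by amplification from the 3' end, starting with 7 ug of RNA, per the labels' protocols. The deposited values are linear intensity per probe set, made by the authors with GCRMA per the submitters' processing notes. Whether all arrays were normalised together is not given in the sources used here, and no scanner values were used. The number of arrays limits the precision.

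The limma package (3.58.1; R 4.3.3) was applied to log2 intensities, with 2 group means fitted over 7 water arrays (5 residual degrees of freedom), eBayes with trend and robust, two-sided, Benjamini-Hochberg over 22746 probe sets, after leaving out 64 controls. ± is the standard error from that fit. On simulated data at these levels, with 100 probe sets changed by each size, 38% of changes of 1 log2 unit and 83% of 2 were called. In the real data 31.1% of all tested probe sets were called, so the adjustment was less strict there. The simulated shares therefore do not give the sensitivity of this comparison. Of the probe sets tested, 13513 have 1 gene in the platform annotation, 503 several and 8730 none listed, so the last are unnamed. Of the 13513, 13436 matched the TAIR10.1 gene table. No reference sequence was used.

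Genes were named by rule from the 15 largest non-overlapping calls with 1 gene in each direction (described where their values carry the comparison). The rule also took up to 6 called and 2 uncalled members per list, and selected gibberellin and dormancy genes. Further genes were named outside this rule after their values were seen, and the counts of 100 genes below leave them out. Members and lists were chosen with earlier results of these data known. That letters A to C do not pair the genotypes rests on the labels alone. Deviations of the same letter correlated at 0.347, 0.352 and 0.06, and those of different letters at -0.41 to 0.364. Alternatives changed the arrays, moderation, floor, filter, scaling, blocks and weights.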

Additional observations from a re-analysis of the deposited data

Results flagged for a closer look

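Of 107 sets of 4 Ler values tested for a sample far from the others (100 genes and 7 array measures), 9 held one by Dixon's test for small samples, and chance gives about 1 in 20. Ler A was the highest array for AT3G09380 (229), AT5G19630 (154.2), SWEET6 (120.9) and CYP71B26 (56.4), and the lowest for TUB6 (8.8). Ler B was the highest for PRX52 (5.3) and EXPA4 (7.8), in both cases under 16, and the lowest for M10 (15528.7). Ler D was the highest for PAP85 (26165.9), next to ga1-3 A at 26166.1. The 3 ga1-3 arrays were too few for this test.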

How the results depend on the processing

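Counts below run higher, lower, 2-fold higher and 2-fold lower in ga1-3, with 2236, 1102, 662 and 264 as reported. Leaving out each array in turn gave 908 to 2755, 437 to 1730, 303 to 1122 and 132 to 525. The low ends came without ga1-3 B or C and the high ends without ga1-3 A. With no filter on low values 3632 were higher and 3437 lower. Quantile scaling gave 1479 higher, and median centring 1840 lower and 460 at least 2-fold lower. Array weights gave 4225 higher and 2592 lower. With the seed batch letter as replicate block 706 were lower. With the cluster of arrays as block, which again sets ga1-3 A against Ler C and D, the counts were 188, 100, 165 and 84. Within cluster 2 alone limma had 1 ga1-3 array and called 0 in each count, with 2885 compared probe sets at an unadjusted p under 0.05. Clusters 1 and 3 alone, a setting chosen after seeing the data, gave 565, 408 and 355 for the first 3 counts. The other settings kept these counts within 1.5 times, and the causes of the shifts were not tested.

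Of 100 genes named by rule, 63 were called, and none of these changed direction under any setting run. The largest calls were chosen for having no overlap between the genotypes. For such genes no subset of the arrays can reverse the direction, so those settings could not test it. Of those not called 15 changed sign under at least 1 setting, such as GID1A, at -0.08 within cluster 2. The cluster block ended 47 of the calls, clusters 1 and 3 alone 34, leaving out ga1-3 B 27 and ga1-3 C 28, quantile scaling 6 and the replicate block 8. Low signal limits the genes under 16, for which a fold is a bound.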
